A study of Mus musculus with 4 samples.

Results

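Hypoxia sensing was described through 9 genes, chosen by name from the 37646 genes in the count tables: Hif1a, Epas1, Arnt, Vhl, Egln1, Egln2, Egln3, Bnip3 and Vegfa. All 9 were found, each in a row of its own, and the rule names them without a threshold on any measured value. RNA came from splenic B cells of C57BL/6 mice of the genotype YFPstopF/+ Cg1Cre/+, in which Cre is expressed from the Ighg1 (Cg1) locus and removes a stop in front of a YFP reporter. Mice received sheep red blood cells in 2 immunisations separated by 20 days, and spleens were collected 10 days after the second. Live (7AAD-negative) B220+ YFP+ cells were sorted, and the labels describe them as normal germinal centre B cells used as controls. The reporter stays on in every descendant of a cell that once expressed Cre, memory cells included, which limits the group as a model of germinal centre cells.

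All 4 libraries belonged to this group, so the comparisons here are between genes within a library and between libraries. Lymphoma samples, which the design text mentions, were not analysed here. No label ties a library to an animal, so the spread between libraries may be technical in part. Library totals ran from 13777954 to 14629025 counts, and 3 counts, the limit that a count of 0 allows, equalled 0.205 to 0.218 CPM (counts scaled to the library total). Intervals and such limits cover counting error only. Library 3 differed from the others in sex-linked transcripts, with Ddx3y at 1307 counts against at most 3 elsewhere and Xist at 6 counts against at least 8689, so its source animals differed in sex. All 8 germinal centre markers examined and all 6 B lineage markers reached a TPM (counts scaled by gene length and depth) of at least 1 in every library. The 9 T cell markers did so too, and their summed level ranged from 183.8 to 467.1 TPM. All 5 plasma cell markers also did so and summed to 790.9 to 1841 TPM, mostly from Jchain, beside 901.3 to 1504 TPM for the germinal centre markers. Macrophage and monocyte markers summed to 194.7 to 304.1 TPM (10 of 12 at 1 TPM or more in every library) and erythroid markers to 98.3 to 270.2 TPM (4 of 7).

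Cells sense oxygen through the hypoxia-inducible factors (HIF), which pair an oxygen-regulated alpha subunit with the constitutive beta subunit Arnt. In the presence of oxygen the prolyl hydroxylases Egln1, Egln2 and Egln3 modify the alpha subunit, and the ubiquitin ligase component Vhl binds the modified protein and marks it for degradation. In low oxygen the alpha subunit escapes this step and pairs with Arnt in the nucleus. The pair binds a short DNA core, ACGTG or GCGTG, near target genes such as Vegfa and Bnip3. Germinal centres are known to contain poorly oxygenated regions. The control acts largely on protein, which RNA levels do not measure.

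Among the members, Egln2 and Hif1a were the most abundant transcripts, Vhl, Arnt and Egln1 lay at intermediate and similar levels, and Vegfa, Egln3, Epas1 and Bnip3 were near or below 1 TPM in at least 1 library. Of the 9 genes, 5 reached at least 1 TPM in every library, where 37.3% of the 30953 genes with a count and a known length did. The genomic positions given below are from GENCODE M21 (GRCm38).

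Promoter sequences are shown for the 2 most abundant members, Hif1a and Egln2, and for 2 of the least abundant, Egln3 and Bnip3, to set the HIF core beside the level of the transcript. Each is the stretch of up to 250 bases before a RefSeq start (GRCm38.p6), written 5′ to 3′ along the gene's strand, with capitals for every match to ACGTG or GCGTG on either strand. A match on the other strand reads CACGT or CACGC, and the palindrome CACGTG counts as a match on both strands. The Bnip3 stretch leaves out the 13 bases that the annotation places in an exon.
Hif1a promoter (chr12:73907617-73907866, plus strand): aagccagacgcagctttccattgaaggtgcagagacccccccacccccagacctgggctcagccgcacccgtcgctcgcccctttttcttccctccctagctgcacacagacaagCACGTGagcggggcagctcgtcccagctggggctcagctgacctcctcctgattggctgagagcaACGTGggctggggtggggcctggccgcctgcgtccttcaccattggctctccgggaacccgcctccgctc
Egln2 promoter (chr7:27166803-27167052, minus strand): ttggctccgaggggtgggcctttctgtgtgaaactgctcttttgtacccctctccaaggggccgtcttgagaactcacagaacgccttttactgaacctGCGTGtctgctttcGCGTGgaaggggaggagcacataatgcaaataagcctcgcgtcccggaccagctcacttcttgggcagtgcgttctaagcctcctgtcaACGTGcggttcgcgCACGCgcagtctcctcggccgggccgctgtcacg
Egln3 promoter (chr12:54203875-54204124, minus strand): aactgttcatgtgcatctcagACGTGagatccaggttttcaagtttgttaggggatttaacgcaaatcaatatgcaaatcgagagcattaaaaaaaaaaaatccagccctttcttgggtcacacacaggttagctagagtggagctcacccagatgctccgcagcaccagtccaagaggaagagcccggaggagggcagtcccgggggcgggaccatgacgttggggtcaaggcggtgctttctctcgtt
Bnip3 promoter (chr7:138909520-138909756, minus strand): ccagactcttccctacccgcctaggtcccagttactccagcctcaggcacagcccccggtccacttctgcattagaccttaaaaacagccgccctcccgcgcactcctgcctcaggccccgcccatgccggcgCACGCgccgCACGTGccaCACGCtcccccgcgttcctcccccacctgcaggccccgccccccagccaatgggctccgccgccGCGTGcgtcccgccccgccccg
The Hif1a window held 3 matches to ACGTG and 0 to GCGTG, and it lies inside the gene's annotated span, upstream of the RefSeq start. The Egln2 window held 1 match to ACGTG and 3 to GCGTG, and the Egln3 window held 1 match to ACGTG. The full Bnip3 window held 2 matches to ACGTG and 3 to GCGTG. The core was therefore found before the starts of transcripts at both ends of the order of levels. Of the 32851 RefSeq windows of the same length, 16.6% held ACGTG, 28.2% held GCGTG and 38.6% held either. RefSeq windows were matched for 8 members, 10 windows in all. Either core was found in 8 of the 10 windows, and 7 of these members had it in at least 1 window. Enrichment of the core was not tested. The Vhl window had no match. Of the 2 Vegfa windows the core was found in the one inside the gene, which has 218 of its 250 bases in annotated exons. A match describes letters and is not evidence of binding.

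The alpha subunit message was almost wholly Hif1a. Hif1a (chr12:73901375-73947530, plus strand) was measured at 45.9, 29.8, 39.7 and 37.5 TPM in libraries 1 to 4, from 1744, 1148, 1379 and 1400 counts. All values lay well above the Epas1 values, and library 1 was highest. Epas1 (chr17:86753700-86833410, plus strand), the alpha subunit known from endothelium and from oxygen control of erythropoietin, was measured at 0.722, 0.301, 0.637 and 0.678 TPM, from 26, 11, 21 and 24 counts. Library 2 was lowest for both genes.

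The mean Hif1a level of 38.2 ± 6.67 TPM (SD, n = 4) was 65.4-fold that of Epas1 at 0.584 ± 0.192 TPM (SD, n = 4). On the log2(TPM + 1) scale the difference was 4.62 ± 0.11 (SD, n = 4) and had the same sign in 4 of 4 libraries. The two-sided exact sign-flip permutation test over 4 libraries gave p = 0.125, the smallest it can give, and 0.146 after Benjamini-Hochberg adjustment over 7 differences between members. The design can therefore not reach a threshold of 0.05 for any of the 7. Hif3a, the remaining alpha subunit, had 31, 13, 36 and 30 counts. Hif1a made up 96.9% ± 0.80 of the summed TPM of these alpha subunits, Epas1 1.45% ± 0.32 and Hif3a 1.63% ± 0.52 (SD, n = 4).

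Endothelial markers were given beside Epas1 because the gene is strongly expressed in vessels. Of 10 markers, 9 could be used, 1 reached at least 1 TPM in every library, and their summed level ranged from 33.6 to 39.3 TPM. Pecam1, which some leukocytes also express, made up most of this sum at 33.4 ± 3.0 TPM (SD, n = 4). Cdh5, the endothelial cadherin, was at 1.07 ± 0.374 TPM (SD, n = 4). Cldn5, a junction protein of endothelium, had 0, 1, 1 and 0 counts, and Tie1 had 0, 0, 0 and 2 counts. The part of other cells in the Epas1 counts was not tested, and in bulk RNA fewer cells of a type and less RNA per cell cannot be told apart.

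The beta subunit Arnt (chr3:95434388-95497240, plus strand) was measured at 13.3, 12.5, 16.8 and 17.0 TPM, from 683, 656, 793 and 864 counts. Libraries 3 and 4 were higher than libraries 1 and 2, and no value reached the lowest Hif1a value. The mean was 14.9 ± 2.34 TPM (SD, n = 4), and Hif1a was 2.57-fold higher. The log2(TPM + 1) difference between Hif1a and Arnt was 1.30 ± 0.29 (SD, n = 4), positive in 4 of 4 libraries, with the same exact sign-flip p of 0.125. It was 1.72 in library 1 and between 1.09 and 1.19 in the others. Arnt2, the related subunit best known from neurons, had 5, 0, 3 and 3 counts.

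Among the oxygen sensors, Egln2 led in every library. Egln2 (chr7:27158658-27166802, minus strand), known as PHD1, was measured at 105.1, 121.6, 143.8 and 104.0 TPM, from 1895, 2226, 2375 and 1845 counts. Its lowest value was above the highest value of every other member. Egln1 (chr8:124908587-124949324, minus strand), known as PHD2 and regarded as the main oxygen sensor for Hif1a in many tissues, was measured at 16.03, 12.9, 14.1 and 14.8 TPM, from 371, 304, 298 and 336 counts. Egln3 (chr12:54178981-54203860, minus strand), known as PHD3 and itself a HIF target, was measured at 0.992, 0.977, 0.828 and 2.08 TPM, from 17, 17, 13 and 35 counts. Library 4 stood above the other libraries for Egln3, and its 95% Poisson interval of 24.4 to 48.7 counts overlapped those of libraries 1 and 2, 9.90 to 27.2 counts each, but not that of library 3, 6.92 to 22.2 counts.

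The ordering of the sensors was the same in all 4 libraries. Mean levels were 118.6 ± 18.6 TPM for Egln2, 14.4 ± 1.30 TPM for Egln1 and 1.22 ± 0.576 TPM for Egln3 (SD, n = 4). Egln2 made up 88.1% ± 2.40 of the summed TPM of the hydroxylases, Egln1 10.9% ± 2.06 and Egln3 0.943% ± 0.530 (SD, n = 4). The log2(TPM + 1) difference of Egln1 from Egln2 was -2.95 ± 0.30 (SD, n = 4), that of Egln1 from Egln3 was 2.83 ± 0.34, and that of Egln2 from Egln3 was 5.77 ± 0.51. Each had the same sign in 4 of 4 libraries and an exact sign-flip p of 0.125. In ratios of mean TPM, Egln1 was 11.9-fold and Egln2 97.4-fold above Egln3.

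**Figure D1:**
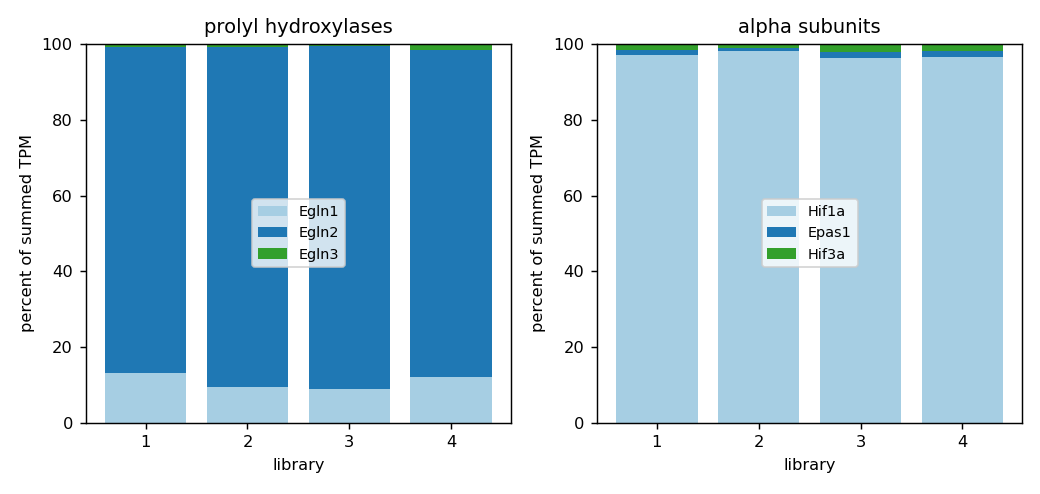
Shares of the summed TPM, in percent, within the prolyl hydroxylases (Egln1, Egln2, Egln3) and within the alpha subunits (Hif1a, Epas1, Hif3a), for each of the 4 libraries. Egln2 took 86.1% to 90.6% of the hydroxylase sum and Hif1a 96.3% to 98.0% of the alpha subunit sum.

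Vhl (chr6:113623959-113631633, plus strand), which recognises the hydroxylated alpha subunit, was measured at 14.4, 12.8, 25.6 and 18.9 TPM, from 277, 250, 452 and 358 counts. Library 3 was highest and library 2 lowest, and the highest Vhl value was below the lowest Hif1a value. The mean was 17.9 ± 5.74 TPM (SD, n = 4), and the log2(TPM + 1) difference of Hif1a from Vhl was 1.09 ± 0.42, positive in 4 of 4 libraries (exact sign-flip p = 0.125). The partners that form the ligase with Vhl were also present. Elob was at 92.0 ± 11.0, Eloc at 38.3 ± 4.08, Cul2 at 24.5 ± 4.17 and Rbx1 at 17.1 ± 2.01 TPM (SD, n = 4).

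The target genes Vegfa and Bnip3 were at the low end. Vegfa (chr17:46016993-46032369, minus strand), the main growth factor for blood vessels, was measured at 0.254, 0.785, 1.74 and 2.95 TPM, from 7, 22, 44 and 80 counts. The libraries lay far apart, and the Poisson interval of library 1, 2.81 to 14.4 counts, did not overlap that of library 4, 63.4 to 99.6 counts. Bnip3 (chr7:138890836-138909519, minus strand), a mitochondrial protein that promotes mitophagy, was measured at 0.274, 0.405, 0.823 and 0.348 TPM, from 4, 6, 11 and 5 counts. Its intervals overlapped between all libraries, for example 1.09 to 10.2 counts in library 1 and 5.49 to 19.7 counts in library 3. Mean levels were 1.43 ± 1.18 TPM for Vegfa and 0.463 ± 0.246 TPM for Bnip3 (SD, n = 4). The log2(TPM + 1) difference of Bnip3 from Vegfa was -0.61 ± 0.67 and was positive in 1 of 4 libraries (exact sign-flip p = 0.25), so no order between them was shown.

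**Figure D2:**
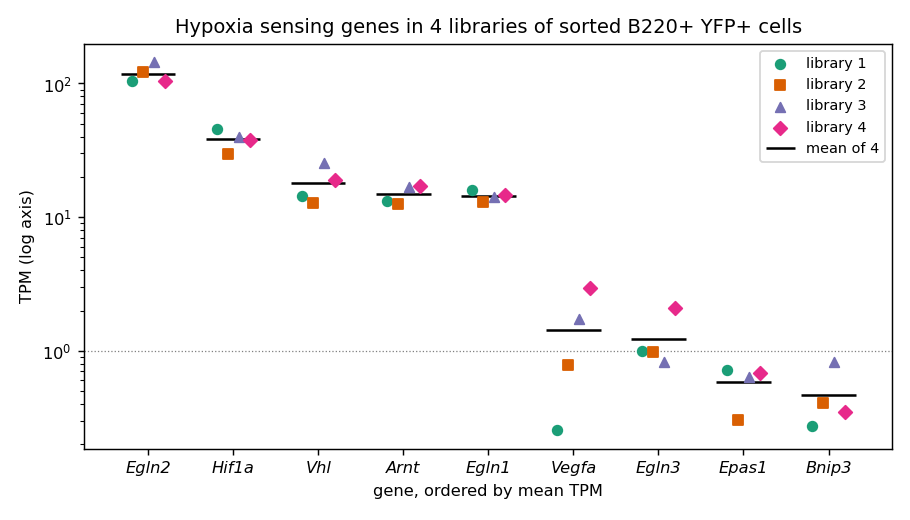
Level of each member in TPM on a log axis, ordered by mean, with 1 point for each of the 4 libraries. Egln2 lay at 104.0 to 143.8 TPM, and Vegfa spread from 0.254 to 2.95 TPM.

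The Bnip3 level carries a limit of the gene itself. Of its 2260 stretches of 50 bases, the read length, 47.2% also occur, on either strand, in the exons of another annotated gene. A read from a stretch shared with a gene elsewhere in the genome has no unique origin. How the authors' counting treated such reads is not given in the sources used here. A long non-coding gene, AC160336.1 on chromosome 14, shared 33.9% of the stretches, and it had 6, 1, 2 and 7 counts. The antisense gene Gm45507 overlaps 504 exon bases of Bnip3 at the same place in the genome and shared 15.9% of the stretches. It had no row in the count tables. The sequence below, from exon 2 of 6 and shown because it lies in the protein-coding part, is an example in GRCm38 of a stretch found in both Bnip3 and AC160336.1.
Bnip3 coding window (chr7:138898779-138898828, minus strand): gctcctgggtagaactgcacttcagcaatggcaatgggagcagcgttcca
Of the 291 coding stretches of Bnip3 that lie within exons, 145 were shared with AC160336.1. For the other members the share was 5.74% for Hif1a, 0.182% for Vegfa and 0% for the remaining 6. Hif1a shares 330 exon bases with the antisense gene Gm15283, which had 5, 13, 1 and 10 counts, and 148 with Gm49321. Both overlap Hif1a at its own place in the genome, and Gm49321 had no row in the count tables.

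Ranked by mean TPM the order was Egln2, Hif1a, Vhl, Arnt, Egln1, Vegfa, Egln3, Epas1 and Bnip3. Neighbours in this order were called apart where the log2(TPM + 1) difference had the same sign in all 4 libraries and its mean exceeded 2 SD. Egln2 and Hif1a were apart by 1.61 ± 0.37, Hif1a and Vhl by 1.09 ± 0.42, and Egln1 and Vegfa by 2.80 ± 0.76 (SD, n = 4). The other 5 neighbouring pairs did not differ beyond their spread by this measure. Against all 30953 genes, Egln2 stood at the 97.5th percentile of mean TPM and Hif1a at the 91.0th, while Epas1 stood at the 49.8th and Bnip3 at the 46.8th.

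Variation between libraries was tested for all 11982 genes that passed a low-count filter, as edgeR quasi-likelihood dispersion over its trend. By adjusted p, 1 gene passed, or 0.00835% of those tested, and 595 genes had an unadjusted p under 0.05, or 4.97%. Of the 9 members, 7 passed the filter, 0 were called and 0 had an unadjusted p under 0.05. DESeq2 marked 159 genes as dispersion outliers, or 1.33%, and limma-voom called 0, or 0% (599 at an unadjusted p under 0.05), with 0 of these 7 members in either. At such shares over all genes, 0 of 7 is no result about the members. Vegfa and Bnip3 had too few counts for the filter. Their values were taken from further fits, chosen after the data were seen.

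Of the members, Vegfa had the widest spread. In a fit over the 12475 genes with a mean of at least 1 CPM, which Vegfa enters through its high libraries, 1 gene was called (0.00802%) and 620 had an unadjusted p under 0.05 (4.97%). There 8 members were tested, 0 were called and 1, Vegfa, had an unadjusted p under 0.05. Its dispersion was 7.47 times the trend (edgeR quasi-likelihood adjusted p = 0.849). The unadjusted p was 0.0288 with all libraries, 0.0921 without library 1, 0.0258 without library 2, 0.0106 without library 3 and 0.0834 without library 4. Over all genes, the fits without libraries 1 to 4 in turn called 6, 0, 21 and 10 genes, and 0 members each. In the fit without a filter the p was 0.00146 and the adjusted p 0.128. The Vegfa variation therefore did not pass the adjusted threshold in any fit run.

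In CPM scaled by trimmed mean of M values (TMM), the highest over the lowest library was 11.0 for Vegfa, 2.76 for Egln3, 2.59 for Bnip3 and 2.17 for Epas1. The 5 abundant members lay between 1.22 for Arnt and 1.57 for Vhl, against a median of 1.42 over all genes tested. The SD of log2(CPM + 0.1) was 1.37 for Vegfa and 0.22 at the median of all genes tested. Among 755 genes of similar level, 98.3% had a smaller SD than Vegfa. For Hif1a this share was 70.1%, for Arnt 26.1% and for Bnip3 21.5%.

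**Figure D3:**
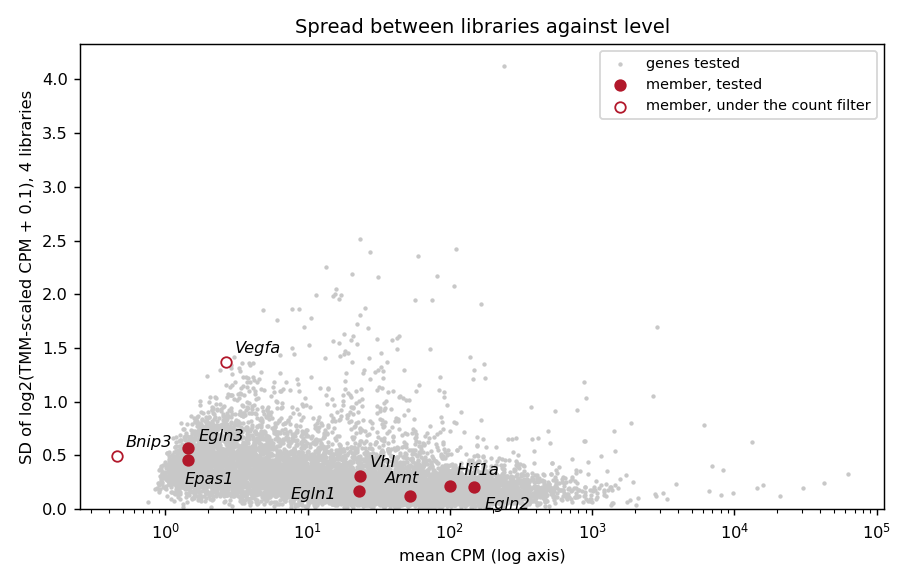
SD of log2(TMM-scaled CPM + 0.1) over the 4 libraries (vertical axis) against mean CPM (horizontal log axis). Grey points are the genes tested, and the members are filled red where tested and open where under the count filter. Vegfa, at an SD of 1.37, stood above most genes of its level, and the 7 tested members lay within the cloud.

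**Figure D4:**
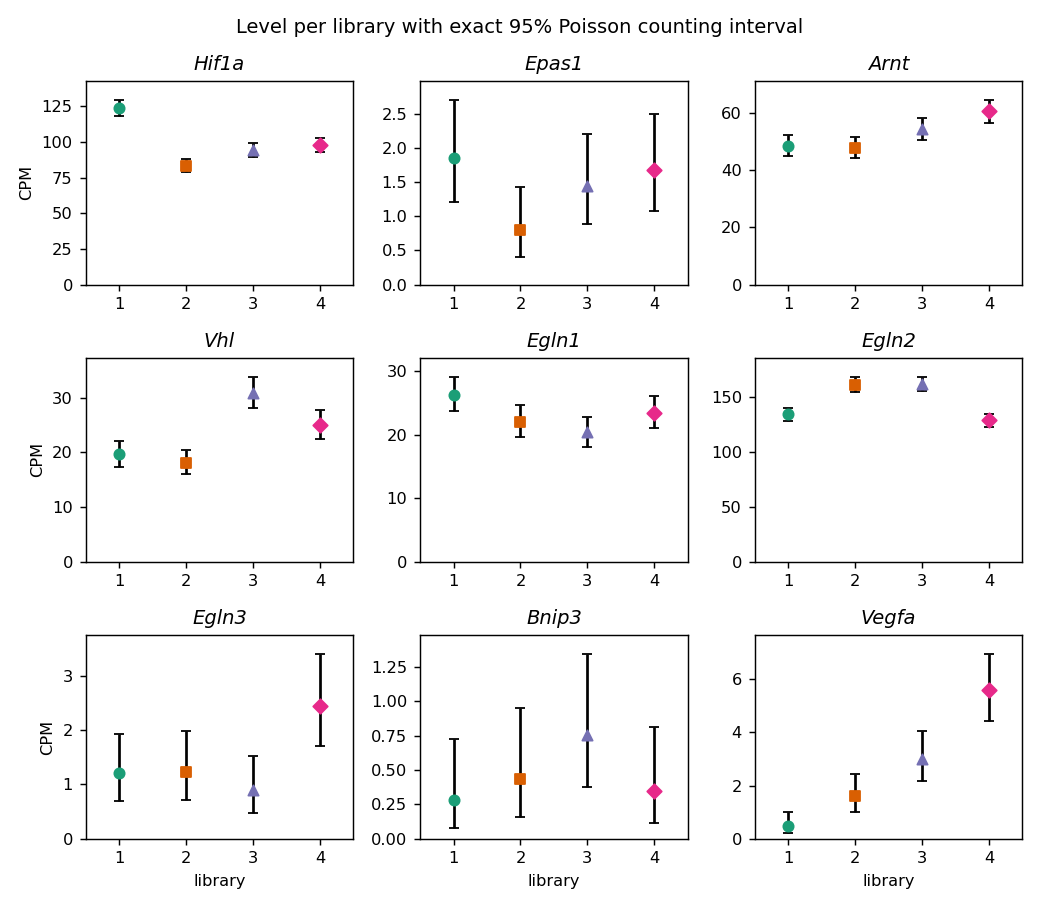
CPM of each member in each of the 4 libraries, with 1 panel per gene and its own axis from 0, and bars for the exact 95% Poisson counting interval. The bars of libraries 1 and 4 are apart for Vegfa, from 0.497 to 5.59 CPM, and all overlap for Bnip3.

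Some neutrophil markers were high and low in the same libraries as Vegfa. Neutrophils can produce this growth factor, and a gate on B220 and YFP should remove them. Csf3r, the receptor for granulocyte colony-stimulating factor, had 36, 25, 101 and 171 counts in libraries 1 to 4, and the protease gene Mmp9 had 10, 11, 46 and 72. Both were lower in libraries 1 and 2 and highest in library 4, as Vegfa was. The chemokine receptor gene Cxcr2 had 4, 2, 8 and 23 counts and Retnlg 0, 6, 20 and 15. The abundant granule genes S100a8 and S100a9 were also highest in library 4. Unlike Vegfa, they were higher in library 1 than in libraries 2 and 3. S100a8 had 165, 133, 102 and 222 counts, lowest in library 3, and S100a9 had 309, 161, 216 and 512. Ly6g had 3 or 4 counts in every library. All 7 markers had counts, 3 reached at least 1 TPM in every library, and their summed level was 131.5, 80.2, 108.9 and 221.7 TPM. Erythroid markers were also highest in library 4, at a sum of 270.2 TPM against 98.3 to 105.7 TPM, with Hbb-bs, a globin gene, at 179, 159, 165 and 592 counts. The part of these cells in the Vegfa counts was not tested.

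The other genes of the VEGF system were mostly near the limit. Of 9 ligands and receptors, 1 reached at least 1 TPM in every library. This was Vegfb, a related ligand, at 46.2 ± 11.8 TPM (SD, n = 4). The co-receptor genes Nrp2 and Nrp1 followed at 0.943 ± 0.290 and 0.648 ± 0.199 TPM. The signalling receptor Kdr had 0, 7, 1 and 6 counts, and Flt4, the lowest, had 1, 0, 0 and 5.

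**Figure D5:**
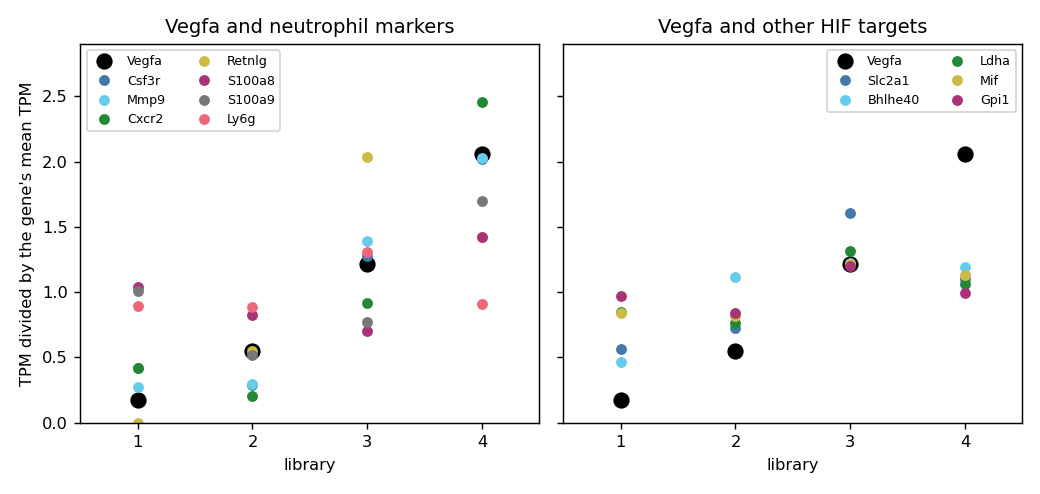
TPM divided by the gene's own mean TPM, for Vegfa with the 7 neutrophil markers (left) and for Vegfa with 5 other HIF target genes (right), in each of the 4 libraries. Csf3r and Mmp9 were low in libraries 1 and 2 and high in libraries 3 and 4, but S100a8 was lowest in library 3. In TPM the 5 HIF target genes were also higher in libraries 3 and 4 than in libraries 1 and 2, and Slc2a1 peaked in library 3. With TMM scaling this order did not hold for Bhlhe40, highest in library 2, or for Gpi1, lower in library 4 than in library 1.

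Of 22 further regulators of the pathway, 20 could be matched to a row, with a median of 14.6 TPM. Of these, 17 reached at least 1 TPM in every library, where 37.3% of all genes with a count and a known length did. The highest were Os9 at 143.6 ± 7.74 TPM, Siah2 at 122.1 ± 44.1 TPM and Cited2 at 109.3 ± 26.8 TPM (SD, n = 4), and the lowest was Arnt2 at 0.057 TPM. Siah2 is a ubiquitin ligase that acts on the prolyl hydroxylases, and Cited2 competes with HIF for the coactivators Ep300 and Crebbp. Those coactivators were at 34.6 ± 2.78 and 22.7 ± 5.38 TPM, and the asparagine hydroxylase Hif1an at 12.2 ± 2.11 TPM (SD, n = 4). The variation test covered 19 regulators and called 0, where 0.00835% of all genes tested were called. An unadjusted p under 0.05 was found for 4.97% of all genes tested and, among the regulators, for Siah2 alone (edgeR quasi-likelihood adjusted p = 0.898). Its level was 74.9, 95.6, 168.4 and 149.6 TPM, higher in libraries 3 and 4 than in libraries 1 and 2.

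Most known HIF target genes other than Vegfa and Bnip3 reached at least 1 TPM in every library. Of 41 targets, 40 had a row of their own, with a median of 9.91 TPM. Of these 40, 32 reached at least 1 TPM in every library and 27 at least 5 TPM. Over all genes with a count and a known length, 37.3% reached 1 TPM in every library. The highest were Ldha, lactate dehydrogenase, at 238.2 ± 58.6 TPM, the cytokine gene Mif at 137.6 ± 27.8 TPM and the glycolytic gene Gpi1 at 134.4 ± 20.2 TPM (SD, n = 4). Epo, the hormone gene that defined the pathway, had 0, 0, 1 and 0 counts, and Car9, a carbonic anhydrase widely used as a hypoxia marker, had 1, 4, 2 and 5. For Mif, 50.9% of the stretches of 50 bases also occur in another gene, and for Pgk1 53.9%, so their levels are uncertain. Many targets, the glycolytic enzymes among them, are also expressed without HIF.

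The variation test covered 33 targets and called 0, where 0.00835% of all genes tested were called. An unadjusted p under 0.05 was found for 2 targets and for 4.97% of all genes tested. At such a share, 2 of 33 is no result about the targets, and the 2 are described here after their values were seen. Bhlhe40, a transcription factor, was measured at 57.5, 137.5, 151.0 and 147.1 TPM, with library 1 far below the rest (edgeR quasi-likelihood adjusted p = 0.589). Slc2a1, the glucose transporter GLUT1, was measured at 30.8, 39.2, 87.2 and 59.8 TPM, with library 3 highest (edgeR quasi-likelihood adjusted p = 0.708). The counts of highest and lowest libraries that follow used TMM-scaled CPM, in which the order of libraries can differ from that in TPM. Of the 33 targets, 14 were highest in library 3, or 42.4%, where 28.1% of all genes tested were. In library 1, 14 were lowest, or 42.4%, against 28.4% of all genes tested. Among the regulators 5 of 19 were highest in library 3, or 26.3% against 28.1% of all genes tested. In library 4, 7 regulators were highest, or 36.8% against 17.9% of all genes tested. The targets went the other way there, with 3 of 33 highest in library 4, or 9.09%. In library 2, 8 of 19 regulators were lowest, or 42.1% against 26.6%. Library 3 is also the library set apart by sex-linked transcripts. Its plasma cell markers summed to 790.9 TPM against 1625 to 1841 TPM elsewhere, its germinal centre markers to 1504 TPM against 901.3 to 1327 TPM, and its T cell markers to the lowest value. Mki67, a proliferation marker, was at 316.8 TPM there and at 142.7 to 204.0 TPM elsewhere. The part of sex and of cell make-up in these values was not tested.

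The genes whose pattern over the 4 libraries was most like that of Hif1a were sought among 6872 genes with a mean of at least 10 CPM and an SD of at least 0.5 of that of Hif1a. Likeness was the root mean square difference of centred log2 CPM over these libraries. The nearest were Arf3 at 0.011, Eif5a2 at 0.015 and Hsbp1 at 0.015. Arf3 had 1672, 1098, 1327 and 1365 counts, highest in library 1 and lowest in library 2, as Hif1a was. For Vegfa, sought after its values were seen among 1004 genes with a mean of at least 1 CPM and the same condition on SD, the nearest were the immunoglobulin segment Igkv4-68 at 0.074, the receptor gene Hcar2 at 0.113 and the segment Igkv5-37 at 0.252. Hcar2 had 3, 13, 28 and 46 counts. With 4 libraries and this many genes searched, close matches to Hif1a or Vegfa can arise without a link between the genes. Whether the matched genes share control with them was not tested.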

How the data were processed

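RNA of 4 libraries, 1 group, was measured by poly(A)-selected sequencing with reads of 50 nt. The deposited values are raw counts per gene, made with FastQC, STAR 2.5.2b and featureCounts 1.6.0 on mm10, per the submitters' processing notes. Annotation release, strand setting and multi-mapping treatment are not given in the sources used here. Groups came from the labels, and library numbers from accession order. TPM was computed from the counts and union exon lengths of GENCODE M21 (37536 of 37646 identifiers matched). The shared 50-base stretches came from its transcripts, and promoters from RefSeq (GRCm38.p6).

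Variation was tested with edgeR 4.0.16 (TMM, filterByExpr, intercept-only glmQLFit, upper tail of F, Benjamini-Hochberg at 0.05), with DESeq2 1.42.0 and limma 3.58.1 as alternatives. The edgeR test was checked on simulated data. Differences used log2(TPM + 1) and exact sign-flip permutation (Python 3.11.15, scipy 1.17.1). Other alternatives were pseudocount 0.1, other filters and scalings, values without gene length and each library left out. Totals of 13777954 to 14629025 counts set the precision. Intervals are exact Poisson at 95%.

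Members and lists were chosen with earlier results of these data known. Named genes are the members, their overlapping genes, the 3 highest and the lowest of each list, and the 3 nearest in pattern to Hif1a. An item under this rule is not reported here. Others are list examples or were picked after their values were seen.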

Additional observations from a re-analysis of the deposited data

Results flagged for a closer look

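Of 70 results screened (levels, differences, shares and summed marker levels given in the text), 12 had 1 of the 4 libraries far from the other 3, with a gap to its nearest neighbour that took up a larger share of the whole range than Dixon's 95% critical value for 4 samples. Chance flags about 1 in 20 groups, and results that share a gene or a library are not independent. Levels were screened in TPM only. The screen was not repeated with TMM scaling, under which the library that stands apart can differ. For Egln3 this share was 0.869, with library 4 at 2.08 TPM and the others at 0.828 to 0.992 TPM. For the log2(TPM + 1) difference of Hif1a from Arnt it was 0.842, with library 1 at 1.72 and the others at 1.09 to 1.19. For Bhlhe40 it was 0.855, with library 1 at 57.5 TPM and the others at 137.5 to 151.0 TPM. Library 2 was apart for Eloc (share 0.903), at 32.2 TPM against 39.8 to 40.6 TPM, for Hif1an (share 0.856), at 9.03 TPM against 12.9 to 13.5 TPM, and for Pecam1 (share 0.85), at 37.9 TPM against 31.4 to 32.4 TPM. Library 3 was apart for Vegfb (share 0.854), at 63.7 TPM against 39.1 to 42.7 TPM, and for Ly6g (share 0.933), which had 4 counts against 3 elsewhere. Library 4 was apart for Hbb-bs (share 0.947), at 121.7 TPM against 31.7 to 36.4 TPM, and for the summed erythroid markers (share 0.957). Epo and Tie1 had a share of 1.0, each with counts in 1 library only, 1 count for Epo and 2 for Tie1.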

How the results depend on the processing

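No paired analysis was possible because the libraries form a single group. The differences between members and the order of sensors kept their direction under pseudocount 0.1, without gene length and with each library left out. Without gene length, Egln1 made up 13.6% and Egln2 85.5% of the hydroxylase counts. The number of genes called for variation, 1 in the report, was 262 with no filter on low counts, 63 with robust edgeR, 159 as DESeq2 dispersion outliers, 0 with limma-voom (599 at an unadjusted p under 0.05) and 0 to 19 with each library left out in turn (0 without library 2, 3 without library 4, 19 without library 3). No member was called in any of these. The cause of these shifts was not tested. Genes near 3 counts, such as Bnip3, are limited by depth.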
